A study of Mus musculus with 6 samples.

Results

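The genes that hold primary fibroblasts in or out of the cell cycle were examined for chromatin accessibility with and without HAT1, the acetyltransferase that acts on new histones. They are Cdkn2a, Cdkn2b, Cdkn1a, Cdkn1b, Trp53, Mdm2 and Rb1. A site was counted as a member when its midpoint lay in 1 of 6 fixed windows of the mm10 genome, with Cdkn2a and Cdkn2b sharing a window because they are neighbours on chromosome 4. This gave 83 sites of the 229903 in the table, of which 9 lay in the Cdkn2a-Cdkn2b window, 13 at Cdkn1a, 4 at Cdkn1b, 9 at Trp53, 23 at Mdm2 and 25 at Rb1. The windows also hold parts of other genes (Trp53cor1, Wrap53, Cpm, Rcbtb2, Lpar6), and sites in them are named as such.

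Accessibility was profiled by ATAC-Seq in pMEFs, fibroblasts grown directly from mouse embryos, from 3 HAT1+/+ and 3 HAT1-/- lines, all on a C57bl6 background. HAT1-/- cells lack the gene in every cell of the embryo, both genotypes were cultured in serum, and no group received a treatment. In ATAC-Seq a transposase inserts sequencing adaptors into open chromatin, so that reads at a site measure its accessibility. For each site the deposited columns used here hold 1 level per genotype, the authors' log2 mean of normalized reads over the lines. No spread between lines is known, so no difference below was tested, and every value is a description of 2 genotype means. Reads are given as 2 to the power of that level, and a log2 difference is always HAT1-/- minus HAT1+/+, so that values below 0 mean lower accessibility without HAT1. Lower accessibility per cell and fewer cells with an open site cannot be told apart in these bulk samples.

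All 13 fibroblast genes looked at had a site within 1 kb of an annotated transcription start, with a median of 155 reads per site in HAT1+/+ cells at the highest such site. Of 12 genes of other cell types, 9 had one, with a median of 27.1 reads, and Cd3e, Krt5 and Alb had none. These levels are not corrected for site width. The log2 difference, HAT1-/- minus HAT1+/+, ran from -0.46 to 1.29 over the fibroblast genes, with Lum (1.29, at 4.66 and 11.4 reads), Col3a1 (0.78) and Dcn (0.74) higher by at least 1.5-fold, and from -0.57 to 0.65 over the genes of other cells, with Ptprc the highest. The part of these marker differences in the values below was not tested. The promoter site of Hat1 had 207 reads in HAT1+/+ and 239 in HAT1-/- cells, a log2 difference of 0.21. Whether the deleted part of the gene includes this site is not given in the sources used here, so its level does not check the labels.

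The member genes encode linked brakes on the cell cycle and, in MDM2, a protein that releases one of them. p16Ink4a, from Cdkn2a, and p15Ink4b, from Cdkn2b, block the cyclin D kinases CDK4 and CDK6, which keeps the retinoblastoma protein, from Rb1, bound to E2F factors and S phase genes silent. p19Arf, read from the same Cdkn2a locus in another frame, restrains MDM2, the ubiquitin ligase that degrades p53 (from Trp53). p53 in turn activates Cdkn1a (p21), which with Cdkn1b (p27) inhibits cyclin-dependent kinases, and cultured MEFs enter senescence mainly through this p19Arf-p53 route as p19Arf builds up with passage.

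The sequences that follow are those on which the descriptions below turn, taken from GRCm38 (mm10) and written 5′ to 3′. The first 3 come from member sites that hold a p53 response element, the sequence to which p53 binds as a tetramer, with 1 mismatch to the consensus. That consensus is a pair of decamers with up to 3 bases between them. Capitals mark the element, and in the Mdm2 sequence also the AP-1 letters TGANTCA, which bind FOS and JUN proteins. The Cdkn1a stretch ends at the base before the most upstream annotated Cdkn1a start (chr17:29090852-29090975, plus strand), the Trp53cor1 stretch lies inside the gene of the noncoding RNA lincRNA-p21, shortly downstream of its start (chr17:29078989-29079108, plus strand, opposite to the gene), and the Mdm2 stretch lies upstream of Mdm2 (chr10:117717631-117717930, minus strand).
Cdkn1a upstream: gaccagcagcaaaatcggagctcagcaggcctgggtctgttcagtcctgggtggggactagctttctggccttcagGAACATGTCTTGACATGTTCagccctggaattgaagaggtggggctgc
Trp53cor1, within the gene: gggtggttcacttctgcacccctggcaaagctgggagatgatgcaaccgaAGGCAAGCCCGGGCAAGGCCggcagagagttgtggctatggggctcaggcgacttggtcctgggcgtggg
Mdm2 upstream: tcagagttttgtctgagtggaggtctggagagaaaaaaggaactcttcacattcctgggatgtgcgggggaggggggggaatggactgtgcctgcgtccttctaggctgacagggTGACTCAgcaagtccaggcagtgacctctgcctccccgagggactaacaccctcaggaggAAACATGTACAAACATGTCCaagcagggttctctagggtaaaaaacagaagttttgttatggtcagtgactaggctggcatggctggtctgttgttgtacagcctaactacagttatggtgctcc

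The next 3 are the 200 bases before the start of p16Ink4a (chr4:89282193-89282392), p19Arf (chr4:89294654-89294853) and Cdkn2b (chr4:89311040-89311239), all on the minus strand, shown because these starts lie within 1 locus and differ in base composition. Their GC content was 61.0%, 78.5% and 52.5%. Capitals mark GC boxes (GGGCGG), and the letters CCAAT and TATAAA were searched on both strands with no match in these windows.
p16Ink4a start: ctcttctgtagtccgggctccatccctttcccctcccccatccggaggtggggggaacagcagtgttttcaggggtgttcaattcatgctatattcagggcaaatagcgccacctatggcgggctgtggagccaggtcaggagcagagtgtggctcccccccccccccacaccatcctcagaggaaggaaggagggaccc
p19Arf start: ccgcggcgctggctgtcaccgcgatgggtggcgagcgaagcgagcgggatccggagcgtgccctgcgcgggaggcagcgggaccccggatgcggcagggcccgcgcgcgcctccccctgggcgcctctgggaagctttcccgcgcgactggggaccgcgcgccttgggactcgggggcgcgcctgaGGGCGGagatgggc
Cdkn2b start: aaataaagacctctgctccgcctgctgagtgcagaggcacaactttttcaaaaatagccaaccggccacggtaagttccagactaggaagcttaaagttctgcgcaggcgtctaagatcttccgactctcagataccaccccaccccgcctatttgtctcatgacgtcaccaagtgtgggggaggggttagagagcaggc

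The last 2 come from sites whose levels differed at least 2-fold between the genotypes and which lie between genes. The first is the central 300 bases of the lowered site beyond the 3′ end of Mdm2 (chr10:117688317-117688616, minus strand), and the second is the whole of the raised site downstream of Cdkn1a (chr17:29112651-29112818, plus strand), with capitals at CCAAT.
Mdm2 distal lower: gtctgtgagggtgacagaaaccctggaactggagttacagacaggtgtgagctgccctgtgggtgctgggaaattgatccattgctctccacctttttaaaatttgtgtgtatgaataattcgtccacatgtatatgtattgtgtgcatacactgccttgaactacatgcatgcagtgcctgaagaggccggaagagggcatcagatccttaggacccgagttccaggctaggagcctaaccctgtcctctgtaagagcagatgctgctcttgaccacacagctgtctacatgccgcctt
Cdkn1a distal higher: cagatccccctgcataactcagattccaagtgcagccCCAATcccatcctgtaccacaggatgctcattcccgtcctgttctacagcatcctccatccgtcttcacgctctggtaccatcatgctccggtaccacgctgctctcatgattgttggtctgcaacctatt

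Over the 83 member sites the accessibility differences were small. The median log2 difference was -0.11, with a range from -1.51 to 1.55, beside a median of -0.06 over all sites. Of the members, 51 were below 0, 31 above and 1 at 0, so that 61.4% were lower in HAT1-/- cells against 55.0% of all sites. Only 2 members were lower by at least 2-fold (2.41%, where 5.11% of all sites were) and 2 were higher by at least 2-fold (2.41%, where 2.82% of all sites were). At 1.5-fold, 8 members were lower (9.64%, against 14.6% of all sites) and 4 higher (4.82%, against 9.85%). Summed over members, HAT1+/+ cells had 4672 normalized reads and HAT1-/- cells 4433, or 94.9% of the HAT1+/+ sum, where the same share over all sites was 94.8%. The plot of both genotypes along each window shows these levels site by site.

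**Figure D1:**
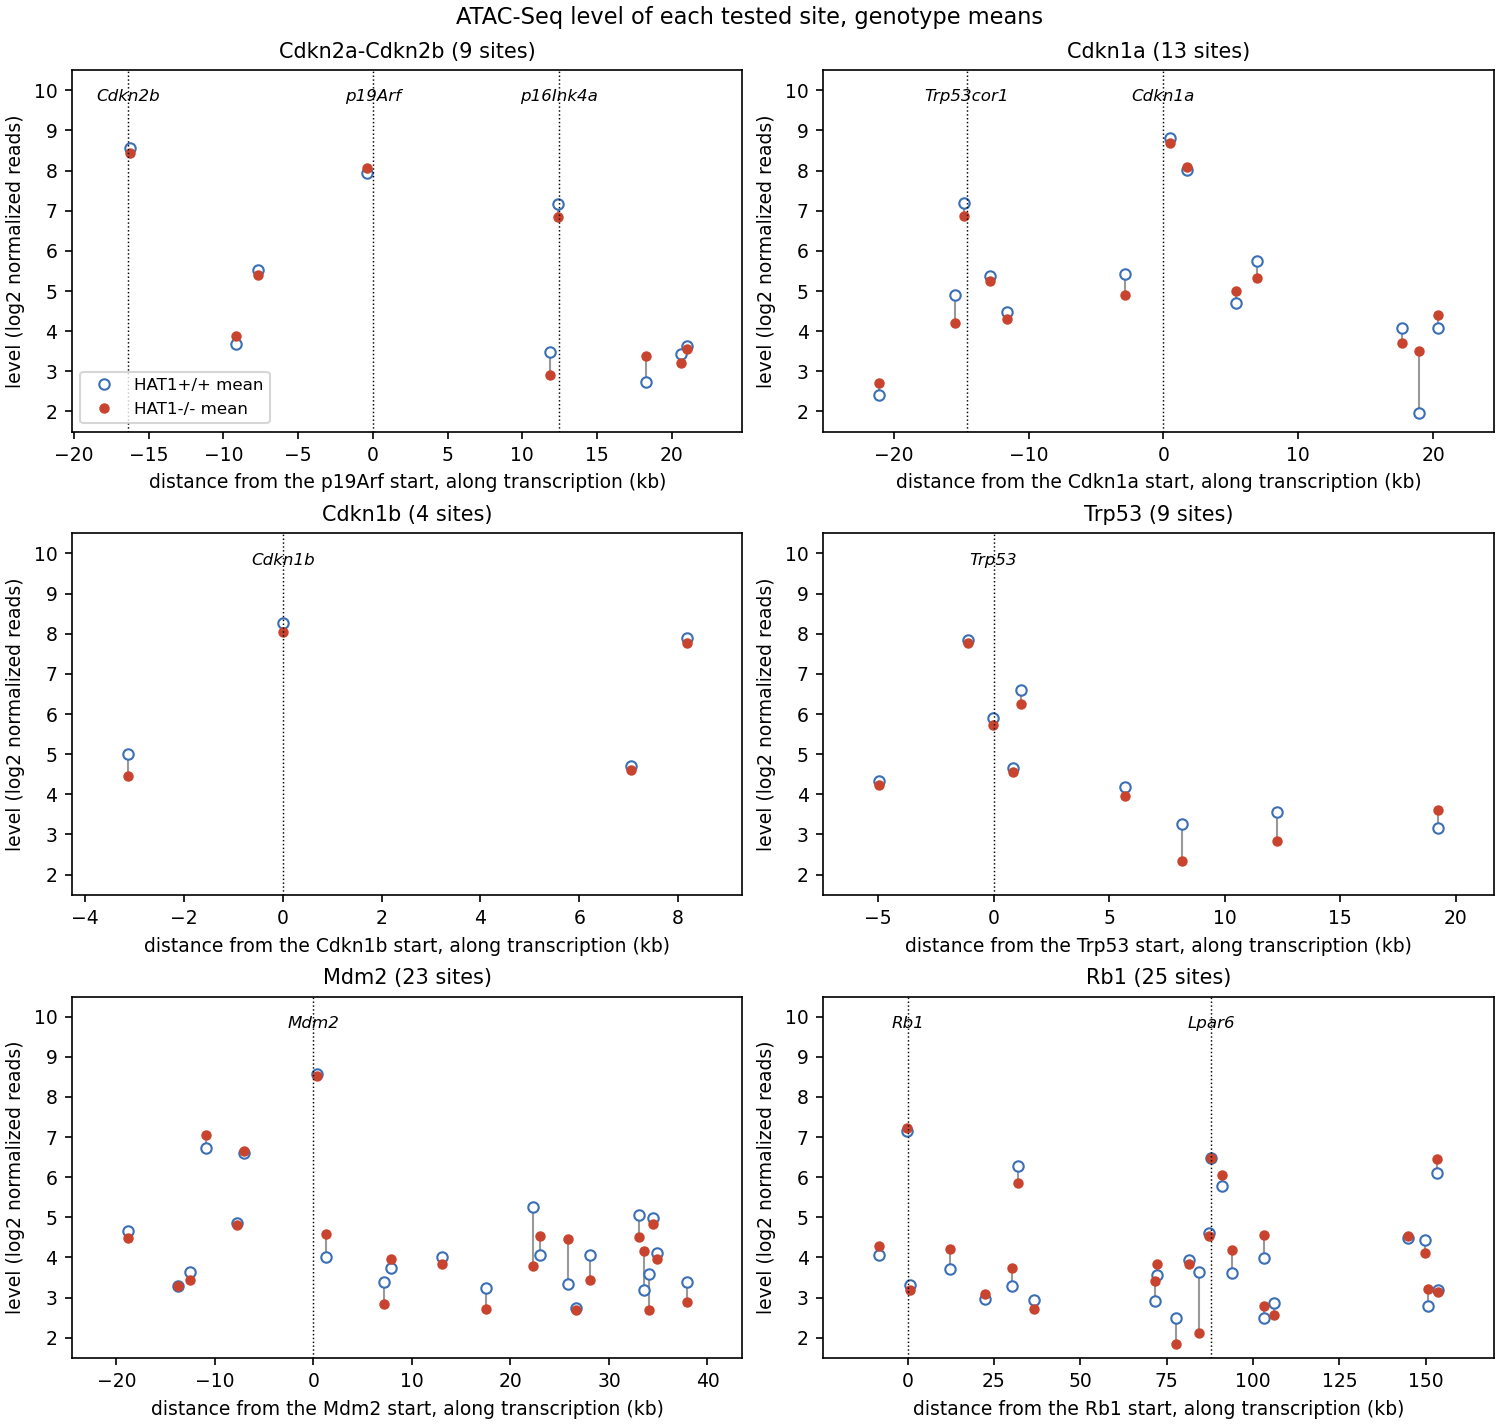
Level of every member site in the 6 windows, as the authors' log2 mean of normalized reads (vertical axis) against the position of the site relative to the main start of the member gene (horizontal axis, kb), with 1 marker for each genotype and no error, since only genotype means were used. The markers of the 2 genotypes lie close together at the high sites and farther apart at the low ones.

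The 15 sites within 1 kb of a start of a member gene are those most directly tied to its promoters. Of them 12 were below 0 and 3 above, with a median of -0.13 and a range from -0.91 to 0.58, beside a median of -0.08 and 60.2% below 0 over all 40696 promoter sites. None was past 2-fold in either direction, where 2.62% of all promoter sites were lower and 1.44% higher. At 1.5-fold 1 was lower and 0 higher, where 9.83% and 5.63% of all promoter sites were. The median level was 7.01 in log2 reads over the 15 sites and 4.76 over all promoter sites. These shares are thus not matched for level. Since sites differ in width, the promoter levels of the genes were also set side by side per 100 bp of site. At the highest promoter site of each gene, this density in HAT1+/+ cells was 49.5 reads at Cdkn2b, 37.1 at Cdkn1b, 32.2 at Trp53, 30.2 at Mdm2, 27.8 at Cdkn1a, 18.6 at Rb1 and 16.3 at the p19Arf start of Cdkn2a. In HAT1-/- cells the same sites had 45.3, 31.9, 30.3, 29.0, 25.4, 19.6 and 17.6 reads, which is the same order. The order depends on the site taken, since the Trp53 value is from the site over the Wrap53 5′ UTR. The site over the main Trp53 start had 20.7 reads per 100 bp in HAT1+/+ and 18.3 in HAT1-/- cells. The p16Ink4a start site had 23.3 and 18.6. Both lay above Rb1 in HAT1+/+ and below it in HAT1-/- cells. Whether neighbours in this order differ beyond the spread between lines is not known.

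**Figure D2:**
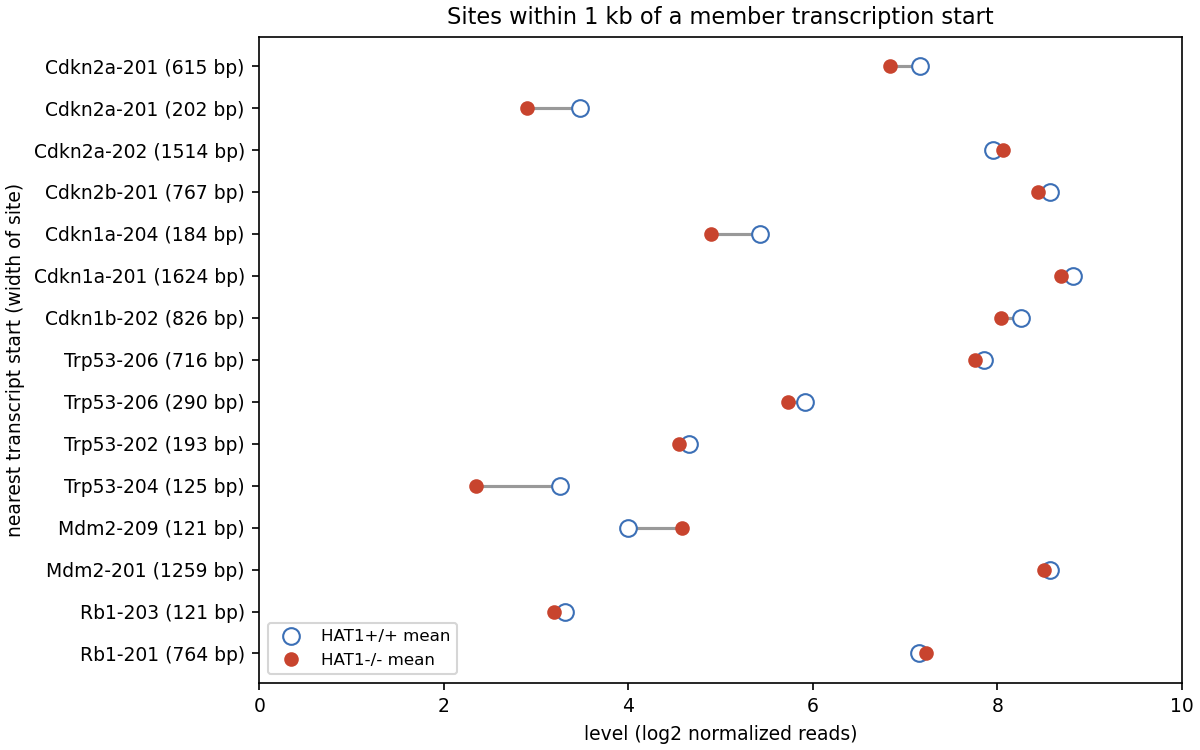
Level of the 15 promoter sites of the member genes in log2 normalized reads (horizontal axis), with open circles for the HAT1+/+ mean, filled circles for the HAT1-/- mean, a line joining them and no error. The rows name the nearest annotated transcript and the width of the site, and the widest gaps are at low sites, the exonic site of Trp53 (a difference of -0.91) and the Mdm2 site beside the promoter (0.58).

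At the Cdkn2a-Cdkn2b locus (chr4:89260000-89330000), the 3 starts had open sites in both genotypes. The p19Arf start site (chr4:89294293-89295806) had 247 reads in HAT1+/+ and 267 in HAT1-/- cells, a log2 difference of 0.11. The p16Ink4a start site (chr4:89281969-89282583), in an intron of the longer Cdkn2a transcript, had 143 and 115 reads, a difference of -0.32 that left 80.1% of the HAT1+/+ level. The promoters of the 2 products of Cdkn2a therefore had differences of opposite sign, both within 1.5-fold. A narrow neighbour of the p16Ink4a site (chr4:89282681-89282882) had 11.1 and 7.46 reads, a difference of -0.57, at a level where each mean rests on few reads. The Cdkn2b site (chr4:89310519-89311285), which covers the 5′ UTR and start of the gene, had 380 and 347 reads, a difference of -0.13. Of the other 5 sites of the locus, the intronic one downstream of the p16Ink4a start (chr4:89276276-89276458) had the highest difference, 0.65, with 6.63 and 10.4 reads. The window as a whole had 6 sites below 0 and 3 above, a median of -0.11 and 94.8% of the HAT1+/+ reads.

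Cdkn1a encodes p21, the inhibitor through which p53 arrests the cycle. Its main promoter site (chr17:29093450-29095073), the widest member site at 1624 bp, had 452 reads in HAT1+/+ and 413 in HAT1-/- cells, a log2 difference of -0.13. The next site downstream, in an intron (chr17:29095136-29095920), had 260 and 271 reads, a difference of 0.06. The core of the gene thus had 91.4% and 104% of the HAT1+/+ level at these sites.

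The upstream Cdkn1a start lies in a separate site (chr17:29090852-29091035), the one from which the first sequence above was taken. It had 43.1 and 29.9 reads, a difference of -0.53 that left 69.3%. Among sites of its level class, the highest of 4, the percentile rank of this difference was 9.97%, with tied sites given their mean rank. Farther upstream, the site at the Trp53cor1 start (chr17:29078729-29079304), which holds the second p53 element, had 147 and 118 reads, a difference of -0.32. An intronic Trp53cor1 site beside it (chr17:29078204-29078438) had 29.7 and 18.4 reads and the lowest difference of the window, -0.69. Both sites with a p53 element thus had lower differences than the main Cdkn1a promoter, and neither was past 1.5-fold. That promoter had a higher level, 452 reads in HAT1+/+ cells. Sites of the window without an element were also low, as was the intronic Trp53cor1 site at -0.69. Further ones had -0.44 (chr17:29100460-29101020, 54.2 and 39.9 reads) and -0.38 (chr17:29111385-29111626, 16.9 and 13.0 reads). The 5 sites above 0 held no element either. Whether the element has a part in these differences was not tested. The highest difference of the window, 1.55, came from the site between Cdkn1a and Rab44 printed above (chr17:29112651-29112818), with 3.86 reads in HAT1+/+ and 11.3 in HAT1-/- cells. Over the window 8 sites were below 0 and 5 above, with a median of -0.13 and 92.3% of the HAT1+/+ reads.

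Cdkn1b encodes p27, which holds CDK2 inactive in resting cells. Its promoter site (chr6:134919986-134920811) had 307 reads in HAT1+/+ and 263 in HAT1-/- cells, a log2 difference of -0.22. A site beyond the gene, near the noncoding gene Lockd (chr6:134928261-134928887), had 237 and 218 reads, a difference of -0.12. The lowest difference, -0.55, was at a site upstream (chr6:134917160-134917374) with 32.0 and 21.9 reads, and the highest, -0.09, at a site downstream (chr6:134927339-134927545) with 26.0 and 24.4 reads. All 4 sites were lower in HAT1-/- cells, and the window kept 87.7% of the HAT1+/+ reads, the smallest share of the 6 windows.

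Trp53 encodes p53 and shares its promoter region with Wrap53, which is read in the other direction. The site with the highest level (chr11:69578910-69579625) lies over the Wrap53 5′ UTR and had 231 reads in HAT1+/+ and 217 in HAT1-/- cells, a log2 difference of -0.09. The site over the main Trp53 start (chr11:69580189-69580478) had 60.1 and 53.1 reads, a difference of -0.18. An intronic site near it (chr11:69581117-69581309) had 25.3 and 23.4 reads, a difference of -0.11. The sites named so far kept between 88.3% and 94.0% of the HAT1+/+ level. Another intronic site (chr11:69581409-69581654), just outside the 1 kb promoter limit, had 97.0 and 76.1 reads. Its difference was -0.35, which left 78.5%.

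The lowest difference at Trp53, -0.91, was at a narrow site of 125 bp over a coding exon (chr11:69588437-69588561) near an internal annotated start, with 9.58 and 5.10 reads. The highest, 0.46, was at a site between Trp53 and Atp1b2 (chr11:69599451-69599708) with 8.94 and 12.3 reads, the only 1 of the 9 sites above 0. The window kept 88.9% of the HAT1+/+ reads, with a median of -0.18.

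Mdm2 encodes the ligase that degrades p53 and is itself a p53 target. Its promoter site (chr10:117709722-117710980) had 380 reads in HAT1+/+ and 365 in HAT1-/- cells, a log2 difference of -0.06, the smallest in size among the highest promoter sites of the 7 genes. A narrow intronic site beside it (chr10:117709451-117709571) had a difference of 0.58, with 23.9 reads in HAT1-/- cells, or 149% of the HAT1+/+ level. The upstream site with a p53 element and AP-1 letters (chr10:117717604-117717957) had 97.0 and 100 reads, a difference of 0.05, where the 2 sites with an element near Cdkn1a had -0.53 and -0.32.

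The window held a member past 2-fold in each direction, close to each other downstream of Mdm2. The site just beyond the 3′ end of the gene (chr10:117688304-117688628) had 38.1 reads in HAT1+/+ and 13.8 in HAT1-/- cells, a difference of -1.46 that left 36.3%. The percentile rank of this difference in its level class, with tied sites given their mean rank, was 1.26%. The raised site (chr10:117684730-117685024) lies in the 3′ UTR of the neighbouring gene Cpm and had 10.2 and 22.0 reads, a difference of 1.11. Between them a site (chr10:117687636-117687875) had 16.7 and 23.1 reads, a difference of 0.47. Neighbouring sites within a few kb thus had differences of opposite sign, and over the window the median was -0.15 while 98.2% of the HAT1+/+ reads were kept. The window also holds further sites in Cpm. Within the Mdm2 gene body extended by 5 kb the median was -0.06.

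Rb1 encodes the retinoblastoma protein, on which the CDK inhibitors converge. Its promoter site (chr14:73325594-73326357) had 142 reads in HAT1+/+ and 150 in HAT1-/- cells, a log2 difference of 0.08. A narrow intronic site near the start (chr14:73324923-73325043) had 9.92 and 9.13 reads, a difference of -0.12. Across this window, which covers the whole gene, 10 sites were below 0, 14 above and 1 at 0, with a median of 0.08 and 105% of the HAT1+/+ reads, so that Rb1 was the only 1 of the 6 windows with a median above 0. The lowest member difference, -1.51, was at a site of 125 bp (chr14:73241347-73241471) in the 3′ UTR of Lpar6, a receptor gene inside an Rb1 intron, with 12.5 and 4.38 reads. The highest differences, 0.58 each, were at 2 intronic sites (chr14:73222615-73222913 and chr14:73231900-73232105) with 15.9 against 23.8 and 12.2 against 18.3 reads. The site over the Lpar6 5′ UTR (chr14:73237795-73238340) had 89.3 reads in both genotypes.

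The size of a difference followed the level of the site. When all sites were ordered by mean level per site, not corrected for width, and split into 4 classes of nearly equal size, with upper limits of 8.73, 14.2 and 28.6 reads for the lower 3, the members numbered 13, 18, 27 and 25. In the highest class none of the 25 members was past 1.5-fold in either direction, where 7.99% of all sites of that class were lower and 2.38% higher. The differences of these members ran from -0.53 to 0.36 with an SD over sites of 0.24, against 0.38 for all sites of the class. The median level in this class was 6.63 in log2 reads over the members and 5.75 over all its sites, so level is not matched within it. In the lowest class the SD over the 13 members was 0.77 against 0.74 for all its sites. Of the 4 members past 2-fold, 2 were in the lowest class and 2 in the next to highest. Low sites rest on few reads, and the part of counting error in their spread was not tested.

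**Figure D3:**
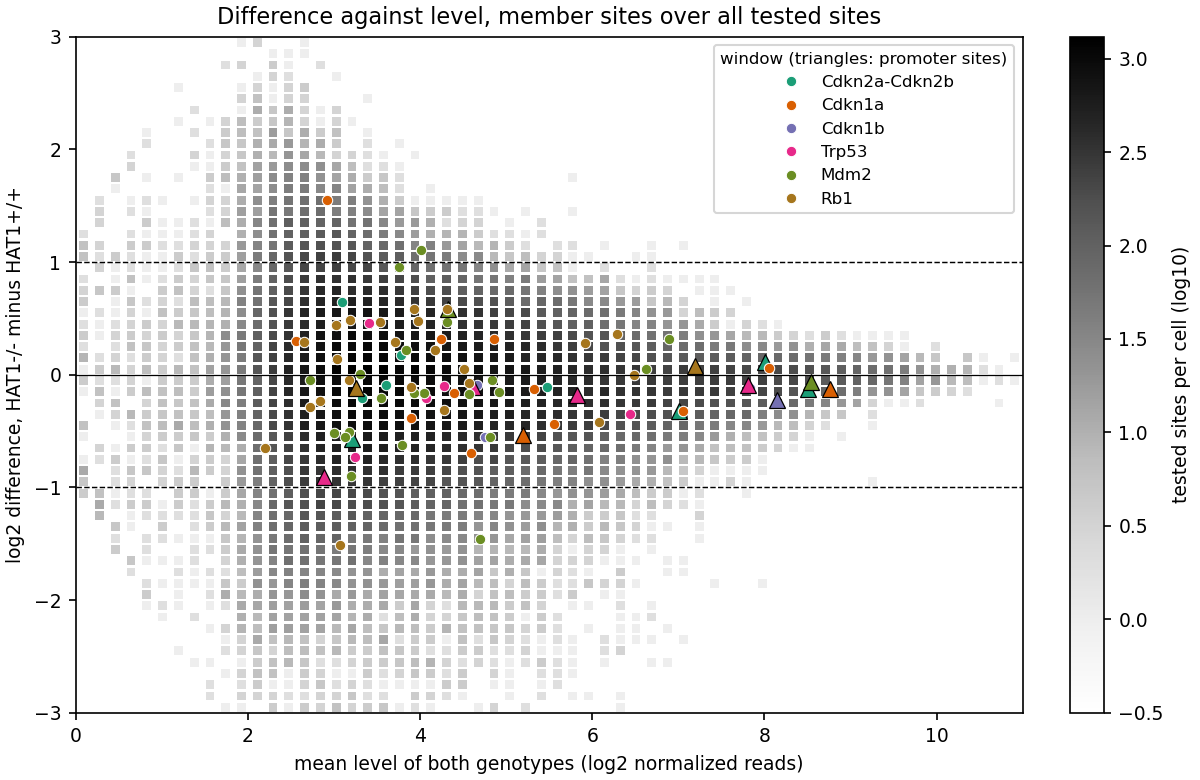
Log2 difference, HAT1-/- minus HAT1+/+ (vertical axis, cropped so that the most extreme grey sites are not shown), against the mean level of the site in log2 normalized reads (horizontal axis), with the member sites as coloured points over all sites in grey. The members narrow towards 0 at high levels, where the 25 in the highest class lie between -0.53 and 0.36.

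Long domains of lowered accessibility in HAT1-/- cells can be called from a moving mean over neighbouring sites, and the place of each window relative to such domains was determined. A domain was taken as a run of consecutive sites whose mean log2 difference over 25 sites was under -0.58, each within 1 Mb of the next. Any site at or above the cutoff ended the run, and separate runs were not joined. This gave 269 domains without chromosome Y. None of the 6 windows lay in a domain. The 25-site mean at member sites ran from -0.22, at Cdkn1a, to 0.15, at Cdkn2a, and at Trp53 it lay between -0.20 and -0.12.

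The Cdkn2a-Cdkn2b window was the nearest to a domain. The domain began 0.366 Mb beyond its Cdkn2b side (chr4:89695688-94218012), was 4.52 Mb long and held 57 sites with a mean log2 difference of -1.16, of which 52 were below 0. The median level of its sites was 17.0 reads in HAT1+/+ and 7.94 in HAT1-/- cells. The 55 sites between the window and the domain had a median of -0.07, close to that of all sites. The domain held the starts of 5 protein-coding genes.

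Rb1 lay 0.531 Mb from a smaller domain (chr14:73871492-74326570), 0.455 Mb long, with 25 sites at a mean of -0.71. The 59 sites between had a median of 0.04. The domains nearest to Cdkn1b, Mdm2, Cdkn1a and Trp53 were 3.20, 5.87, 12.3 and 31.1 Mb away. No minimum length was set, and these were, in the same order, 0.00152, 1.44, 0.565 and 0.499 Mb long. They held 2, 21, 9 and 4 sites, with mean log2 differences of -0.50, -0.74, -0.54 and -0.56.

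**Figure D4:**
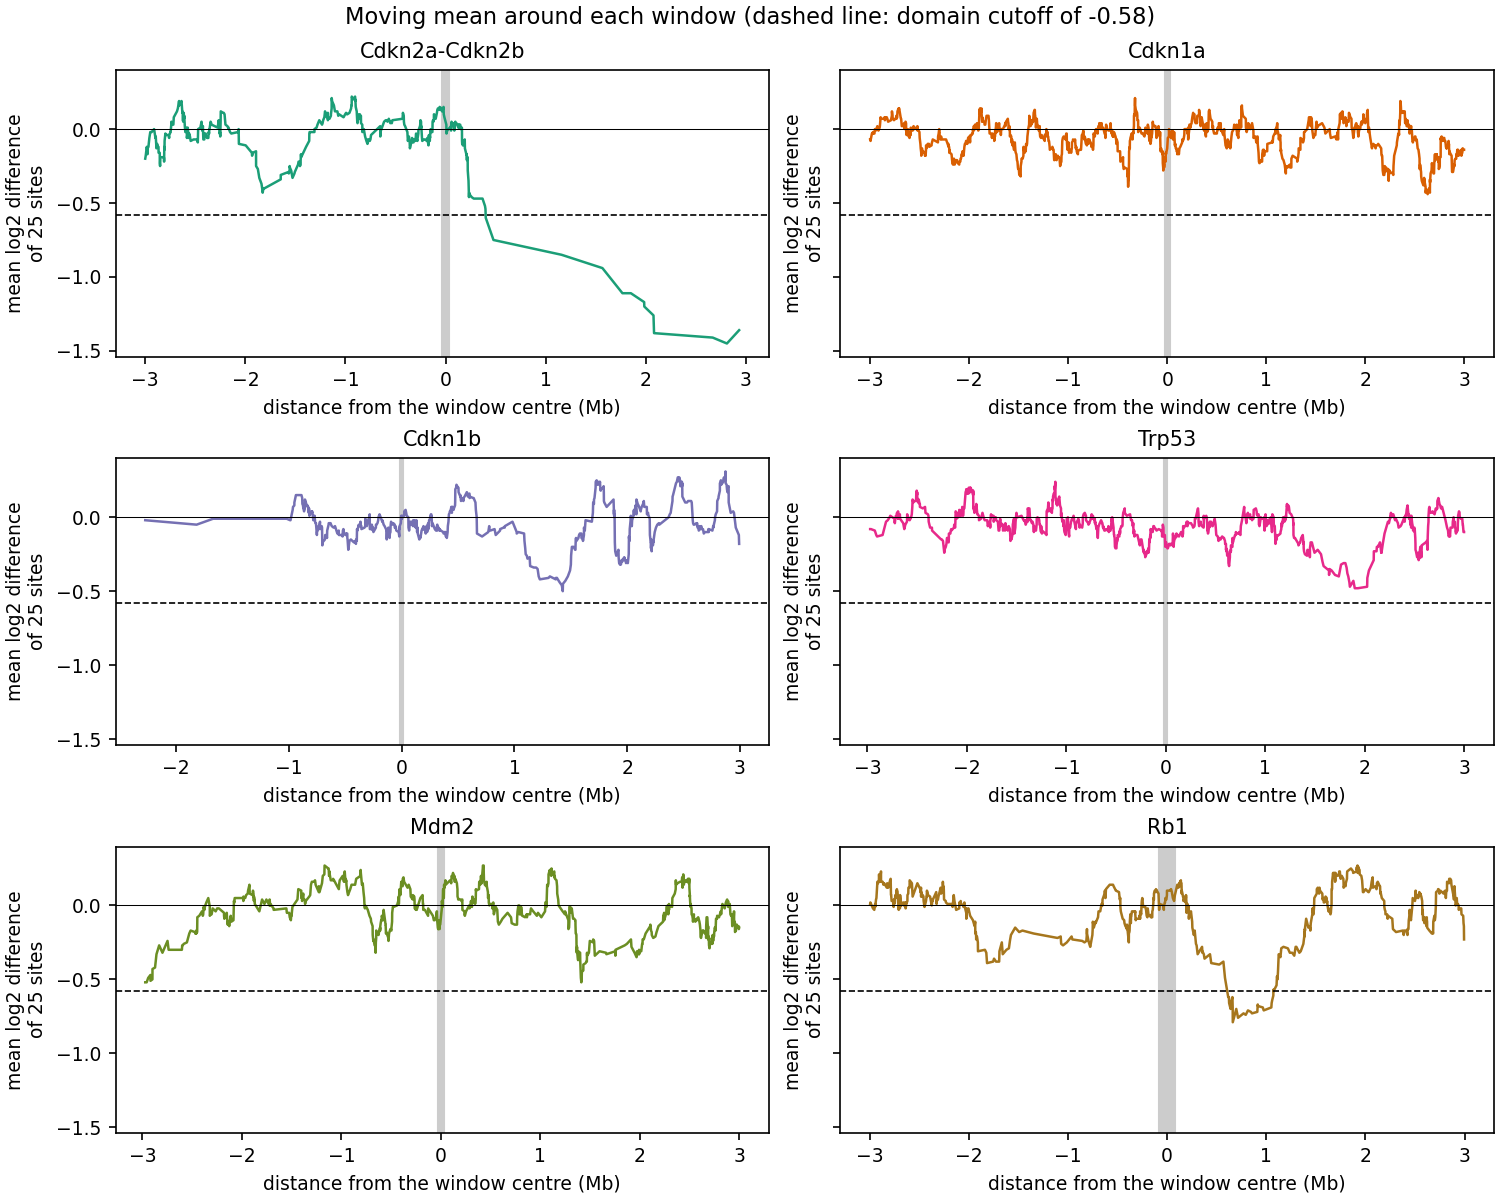
Mean log2 difference over 25 consecutive sites (vertical axis, HAT1-/- minus HAT1+/+) within 3 Mb of the centre of each member window (horizontal axis, Mb), with the window as a grey band and the domain cutoff of -0.58 as a dashed line. The curve stays near 0 at every window and goes below the cutoff on 1 side of the Cdkn2a-Cdkn2b and Rb1 windows.

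The wider pathway was described by the highest promoter site of each gene in fixed lists. Over all 25613 genes with such a site the median log2 difference was -0.07, 62.1% were below 0, 2.12% were lower and 1.02% higher by at least 2-fold, and 7.36% were lower and 3.78% higher by at least 1.5-fold. No gene of the 6 lists was past 2-fold at this site. The median HAT1+/+ level was 93.7 reads over all genes and from 131 to 407 over the lists, so the shares are not matched for level. When every promoter site of the listed genes was taken, 1 of the 52 of the senescence genes was lower by at least 2-fold, where 2.62% of all promoter sites were.

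Of 19 regulators of p53, 18 had a promoter site and Trp63 had none. Of these 6 were below 0 and 12 above, with a median of 0.06. The values ran from -0.17 at Kat5 and -0.14 at Crebbp, which acetylate p53 and histones, to 0.19 at Trp53bp1, which binds damaged chromatin, and at Cop1, a ubiquitin ligase for p53, and 0.22 at Atr, a kinase of the damage response. Wrap53, a member of this list, has as its highest site the one also given for Trp53.

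Of 27 targets of p53, 26 had a promoter site and Sfn had none. Of these 19 were below 0 and 6 above, with a median of -0.10. The lowest were Eda2r, a receptor of the TNF receptor family, at -0.41, with 154 reads in HAT1+/+ and 116 in HAT1-/- cells, and Perp, a membrane protein of p53-dependent death, at -0.39 with 52.7 and 40.2 reads. Eda2r is X-linked and its 25-site mean was also -0.39. The highest were Zmat3, an RNA-binding protein, at 0.13 and Ccng1, cyclin G1, at 0.09.

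Of the 28 Rb-E2F genes all had a promoter site, 13 below 0 and 13 above, with a median of 0.00. The cyclin D genes, whose kinases phosphorylate the retinoblastoma protein, were at both ends of the list. Ccnd1 had 99.0 reads in HAT1+/+ and 66.3 in HAT1-/- cells, a difference of -0.58, and Ccnd2 had -0.24, while Ccnd3 had 0.15. Tfdp2, the partner of E2F proteins, had 0.12. The list of 5 other CDK inhibitor genes also holds Cdkn3, a phosphatase, and Cdkn2aip, a partner of p19Arf. It ran from -0.08 at Cdkn1c (p57) and 0.00 at Cdkn2aip to 0.04 at Cdkn2d (p19Ink4d) and 0.08 at Cdkn3, with a median of 0.01.

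Of 18 genes known to repress or activate the Cdkn2a locus, 17 had a promoter site and Kdm6b had none. Of these 11 were below 0 and 4 above, with a median of -0.05. Tbx2, a T-box repressor of the locus, had 56.1 reads in HAT1+/+ and 38.1 in HAT1-/- cells, a difference of -0.56. The Polycomb genes, whose products silence the locus, spread from -0.27 at Phc2 to 0.10 at Bmi1 and 0.24 at Cbx7.

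Of 30 genes of the senescence secretion or used as senescence markers, 28 had a promoter site and Il1b and Csf2 had none. Of these 18 were below 0 and 9 above, with a median of -0.13, and 2 were lower and 1 higher by at least 1.5-fold. The lower ones were Il1a, a cytokine at the head of the secretory cascade, at -0.86 with 7.62 and 4.20 reads, and Mmp3, a matrix protease, at -0.66 with 10.8 and 6.82 reads. The higher one was the chemokine gene Cxcl5, at 0.62 with 27.7 and 42.5 reads, followed by Ccl7 at 0.25. All 3 genes past 1.5-fold had fewer reads than the median of the list, 131.

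**Figure D5:**
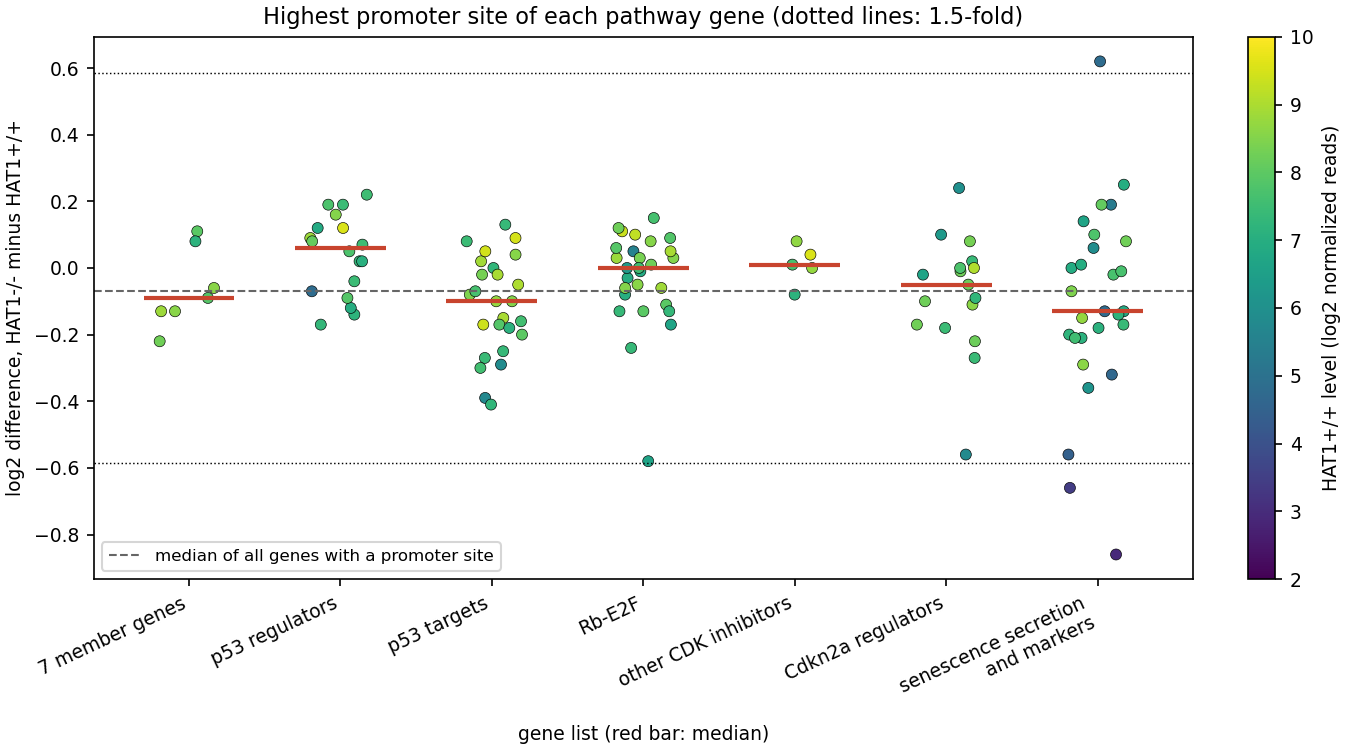
Log2 difference, HAT1-/- minus HAT1+/+, at the highest promoter site of each gene (1 point per gene) in the member genes and the 6 pathway lists, with the median of each list drawn as a bar and no error. The medians lie between -0.13, for the senescence genes, and 0.06, for the regulators of p53.

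The sequence of the member sites was described in the 300 bases centred on each, searched on both strands. The p53 element had no exact match in any member, where 0.0539% of all sites had 1, and with up to 1 mismatch it was in 3 members (3.61%, against 0.405% of all sites). These are the 3 sites printed first above, and the form with up to 1 mismatch was chosen after matches had been seen. With up to 2 mismatches it was in 7 members (8.43%, against 2.01%). The other 4 had log2 differences of -0.21 at a site upstream of Mdm2 (chr10:117723216-117723390) and 0.28, 0.00 and -0.23 at 3 sites in the Rb1 window. A pair of CATG letters spaced as in the element was in 3 members (3.61%, against 1.15%), the printed Cdkn1a and Mdm2 upstream sites and another site upstream of Mdm2 (chr10:117721487-117721779), which had 0.32. Over all sites with the element, the median log2 difference was -0.17 for the 124 with an exact match and -0.09 for the 932 with up to 1 mismatch. It was -0.07 for the 4617 with up to 2 and -0.03 for the 2634 with the CATG pair, beside -0.06 over all sites. The quartiles overlapped widely. They were -0.43 and 0.17 for the exact matches, -0.41 and 0.25 with up to 1 mismatch, -0.40 and 0.25 with up to 2, and -0.37 and 0.25 over all sites.

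AP-1 letters were in 15 members (18.1%, against 27.2% of all sites) and the E-box CACGTG in 9 (10.8%, against 5.15%). The GC box GGGCGG was in 12 (14.5%, against 11.4%) and CCAAT in 32 (38.6%, against 31.3%). Over all promoter sites the shares were, in the same order, 14.4%, 6.74%, 34.9% and 28.6%. The members mix promoter and other sites, and the shares over all sites are not matched for this mix. The CTCF core motif was in 4 members (4.82%, against 5.78%) and TATAAA in 10 (12.0%, against 12.2%). The E2F letters TTTCCCGC and TTTGGCGC had no match in these central 300 bases, where 0.339% and 0.197% of all sites had 1. In 500 bases TTTCCCGC was in 1 of the 83 members, where 0.571% of all sites held it, and the printed p19Arf stretch, which lies to the side of the centre of its wide site, also holds these letters. A match is only a run of letters and not evidence of a bound factor. The median GC content was 51.2% over member sites and 50.1% over all sites, and 61.3% over the member promoter sites against 56.7% over all promoter sites.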

How the data were processed

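ATAC-Seq libraries of 3 HAT1+/+ and 3 HAT1-/- pMEF lines were processed by the authors, who used the ENCODE pipeline with Bowtie2 alignment to mm10 and MACS2 peaks, followed by DiffBind 2.14.0. The library normalization and the rule for the shared site list are not given in the sources used here. The deposited values used are log2 levels, the authors' mean per genotype for each site. Their columns of fold change, P and FDR hold the study's own comparison and were not used. Levels per line were not analysed here, the depth per line is unknown, and no interval or test could be made.

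Here the difference of the 2 log2 levels was taken at each site, with no pseudocount. Past 2-fold was the main size limit and 1.5-fold the alternative. Promoter sites overlapped the 1 kb on either side of a GENCODE vM21 start. GRCm38, the same assembly as mm10, gave sequence, and site positions were checked against its chromosome lengths. Named are all member promoter sites, the highest site and those with the extreme differences in each window, and the 2 genes at each end of each list. A few further sites of the windows, and Wrap53, were named after their values were seen. The members and lists were chosen with earlier results of these data known. Alternatives were a level filter, centring, a pseudocount of 1 read, other membership rules, 3 kb promoters and other window sizes. Scripts were tested on simulated data. The tools were numpy (2.4.6) and pandas (2.3.3) under Python (3.11.15), and matplotlib (3.10.9) for figures.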

Additional observations from a re-analysis of the deposited data

How the results depend on the processing

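Over all results and alternatives 133 values were compared, of which 124 stayed close to the reported one and 9 moved. A log2 value counted as close when it changed by no more than 0.1. A count of members had to stay within a ratio of 1.5, and a share within the 95% binomial interval of the reported one. The limit of 0.1 is near the size of the reported medians. Centring subtracted -0.06 from each log2 difference, within that limit, so it could not mark a log2 value as moved. Without the lowest 25% of sites by level, 70 members were left, with 1 lower and 1 higher past 2-fold. Within gene bodies extended by 5 kb, 56 were left, with 1 higher. At 1.5-fold 8 were lower and 4 higher. With 3 kb promoters the median of the senescence genes was -0.01. With 51 sites the moving mean at Mdm2 was 0.00. With 500 bases CCAAT was in 53% and TATAAA in 26.5% of members, where 47.5% and 23.1% of all sites held them, and the E2F letters TTTCCCGC were in 1 member in place of 0. The sign changed in 4 values near 0. Centring by the median of all sites (-0.06) left 3 members higher past 2-fold in place of 2 and gave 0.03 for the summed reads at Mdm2 and 0.01 for the Cdkn2a regulators, and 15 sites gave 0.02 for the moving mean at Cdkn1b. The fourth was the 0.00 at Mdm2.

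Leaving out a line was not run, since the columns used are genotype means. No paired analysis was possible because the columns carry no value per line. Depth limits what can be said of sites with few reads, and no difference here has a replicate check. The p53 element with up to 1 mismatch was added after matches had been seen.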
